A study of Mus musculus with 4 samples.

Results

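The FGF ligands and receptors of limb outgrowth were followed as 8 genes of the expression table, taken by symbol: the apical ectodermal ridge ligands Fgf4, Fgf8, Fgf9 and Fgf17, the mesenchymal ligand Fgf10, and the receptors Fgfr1, Fgfr2 and Fgfr3. All 8 were found among the 17568 genes listed. RNA had been sequenced from wild type mouse forelimbs of the Swiss Webster strain, taken at E10.25 (31 to 34 somites), after culture in control medium (2 libraries) or in medium with cyclopamine (2 libraries). Cyclopamine inhibits Smoothened, the transducer of the Hedgehog signal, and the design compares limb transcripts with and without that inhibitor. The sources used here do not give the dose, the culture time or the number of embryos in a library. The labels number the 2 libraries of a group and tie them to no litter or culture, so the p-values measure only the spread between these libraries.

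Fibroblast growth factors are secreted ligands that bind receptor tyrosine kinases together with heparan sulphate and act largely through the RAS and MAP kinase cascade. In the limb bud Fgf10 from the mesenchyme signals to the ectoderm through an epithelial splice form of Fgfr2, and ligands of the ridge signal back to the mesenchyme, mainly through Fgfr1 and a mesenchymal form of Fgfr2. Sonic hedgehog from the posterior mesenchyme and the BMP antagonist Gremlin1 are known to keep ridge FGF expression going, and the ridge FGFs in turn keep Shh on.

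Levels are given in CPM, the deposited count scaled to 1000000 reads of an effective library size. The libraries held between 9779589 and 13555492 gene-assigned reads, so that 1 read was worth 0.0735 to 0.103 CPM. Changes are log2 fold changes of cyclopamine over control on log2(CPM + 0.5), tested with limma across the 13568 genes whose mean reached 1 CPM, and a change was called at a Benjamini-Hochberg adjusted p under 0.05 over all of these. The limb identity of the libraries was checked on Tbx5, the forelimb T-box gene, which measured between 193 and 226 CPM, and Prrx1, a limb mesenchyme gene, between 560 and 783 CPM. Tbx4, typical of the hindlimb, measured between 5.51 and 9.90 CPM. Action of the inhibitor was read on the pathway target Gli1, at 56.2 and 56.7 CPM in controls 1 and 2, and 8.05 and 4.70 CPM with cyclopamine (limma log2 fold change -3.10, SE 0.23, adjusted p = 4.32e-06).

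Among the 8 genes, limma called 2 ridge ligands lower, Fgf4 and Fgf8, and 0 genes higher. Over all genes tested, 0.236% were called lower and 0.0442% higher. In 4 of the 8 (Fgf4, Fgf8, Fgf17 and Fgf10) both cyclopamine libraries lay below both controls, a pattern seen in 15.8% of all genes tested, and in Fgfr2 both lay above, as in 16.8% of all genes tested. Fgf17 had a mean under 1 CPM, so 7 of the 8 were tested. The authors' deposited table, in which 0.455% of genes have a false discovery rate under 0.05, likewise marks Fgf4 and Fgf8 and none of the other members.

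**Figure D1:**
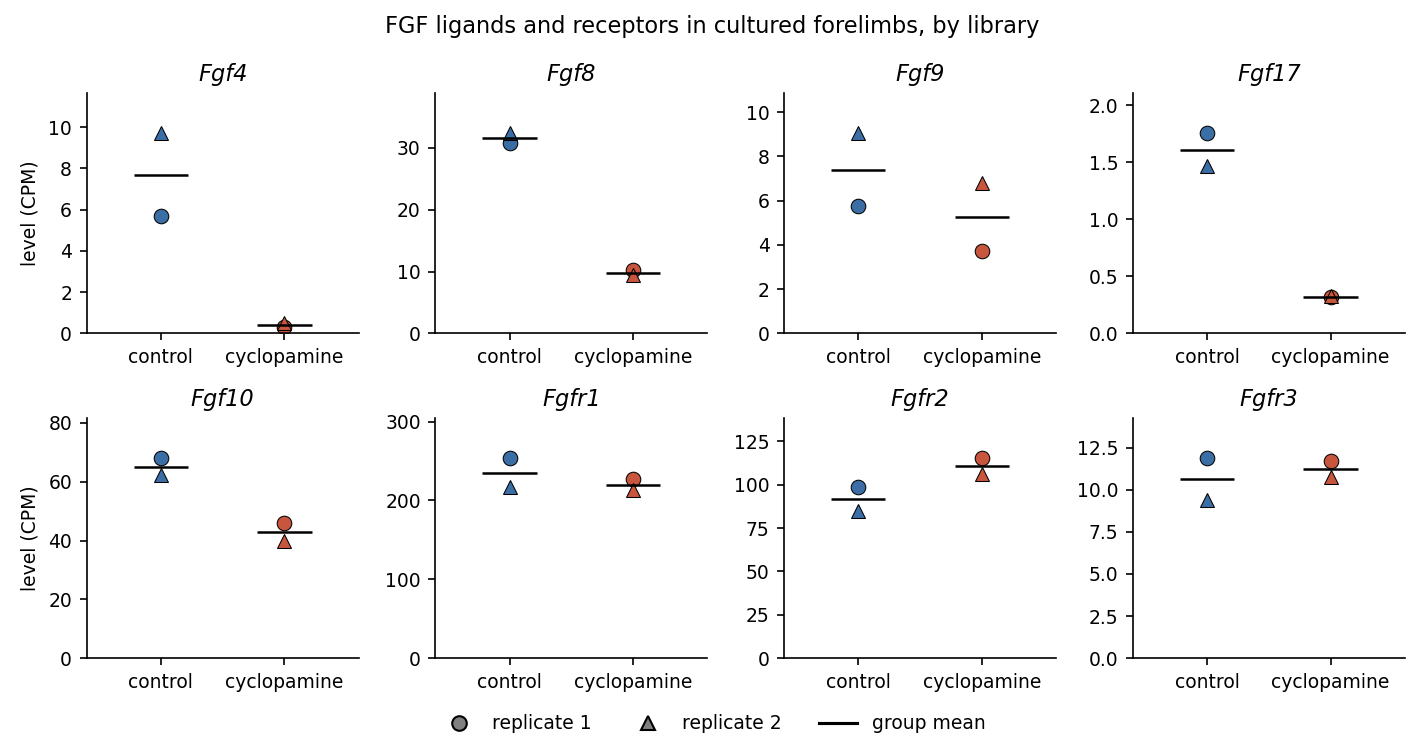
Level in CPM (vertical axes, each starting at 0 and on its own scale) of the 8 genes in the control and cyclopamine libraries; circles are replicate 1, triangles replicate 2, and the line is the group mean. Fgf4, Fgf8, Fgf17 and Fgf10 have both cyclopamine libraries below both controls, and Fgfr1 and Fgfr3 overlap.

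Fgf8, the ligand made along the whole ridge and the one on which limb outgrowth depends most, measured 30.8 CPM in control 1 and 32.3 CPM in control 2, against 10.18 CPM in cyclopamine 1 and 9.40 CPM in cyclopamine 2. The groups were far apart and the replicates of each lay close together, resting on 299 and 440 reads in the controls and 129 and 116 in cyclopamine. The log2 fold change was -1.64 (95% interval -2.06 to -1.22, limma adjusted p = 0.000973). The call was kept in all 4 fits with a library removed, with log2 fold changes from -1.70 to -1.59. Fgf8 lies on chromosome 19 of mm10, at 45736798 to 45742915 on the minus strand, and its annotated exons overlap those of no other gene.

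Fgf4, a ligand of the posterior and distal ridge that is known to need Hedgehog signal, had the largest fall of the members. It measured 5.67 CPM in control 1 and 9.70 CPM in control 2, and 0.316 and 0.486 CPM in cyclopamine 1 and 2. Both cyclopamine libraries were near the floor of detection of 3 reads (0.237 and 0.243 CPM), with 4 and 6 reads against 55 and 132 in the controls. Taking reads over each group, the controls held 20.1-fold more (95% exact interval 10.7 to 42.6, for counting error only). The limma log2 fold change was -3.15 (95% interval -3.99 to -2.30, adjusted p = 0.00128), which understates the change because cyclopamine values lie close to the added 0.5 CPM. The call was kept without each library in turn, and without control 2, the library with more Fgf4, it was -2.78 (adjusted p = 0.0274).

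Fgf4 lies on chromosome 7 of mm10, at 144847367 to 144865243 on the plus strand. The 250 bases before the transcription start are shown for Fgf4, which was called, and for Fgf9 and Fgf10, which were not. They come from RefSeq promoter windows of GRCm38.p6, and a link between these sequences and the changes was not tested. These RefSeq starts lie inside the gene spans given here, because the spans begin at the first start of any annotated transcript. All are on the plus strand, 5′ to 3′, and capitals mark matches on either strand to the GC box GGGCGG, to the CCAAT box and to a motif of a TATA type that reads TATATA.
Fgf4, chr7:144861136-144861385: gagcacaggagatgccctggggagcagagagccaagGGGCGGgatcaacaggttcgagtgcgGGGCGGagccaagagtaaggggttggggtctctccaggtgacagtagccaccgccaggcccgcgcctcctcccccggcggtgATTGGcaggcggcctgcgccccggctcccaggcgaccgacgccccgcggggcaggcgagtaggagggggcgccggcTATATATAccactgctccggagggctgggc
Fgf10, chr13:118714449-118714698: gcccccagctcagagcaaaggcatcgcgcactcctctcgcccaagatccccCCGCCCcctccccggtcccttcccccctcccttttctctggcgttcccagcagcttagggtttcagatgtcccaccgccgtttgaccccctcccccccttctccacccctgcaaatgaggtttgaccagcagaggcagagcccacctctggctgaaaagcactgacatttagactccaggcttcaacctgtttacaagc
Fgf9, chr14:58072436-58072685: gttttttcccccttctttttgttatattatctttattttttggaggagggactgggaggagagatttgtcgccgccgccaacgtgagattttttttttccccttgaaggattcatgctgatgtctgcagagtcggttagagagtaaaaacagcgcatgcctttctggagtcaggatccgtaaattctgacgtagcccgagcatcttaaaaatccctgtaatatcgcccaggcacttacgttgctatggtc

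The Fgf4 window has 2 GC boxes, 1 CCAAT box read on the minus strand and a TATATATA run that holds 2 overlapping matches to TATATA, close before the start. It is 71.2% G or C with 21 CpG dinucleotides, where the median over all 32851 promoter windows is 52.4% and 6. The Fgf10 window is 61.2% G or C with 8 CpG and 1 GC box, and that of Fgf9 is 44.8% G or C with 11 CpG and has none of these motifs. Over all promoter windows, 32.7% hold a GC box, 33.8% a CCAAT box and 5.25% TATATA. The consensus for GLI factors, GACCACCCA on either strand, occurs in 0.225% of all windows and in 0 of the 6 windows of Fgf4, Fgf9, Fgf10, Fgfr2 and Fgfr3. Promoter sequences were not matched for Fgf8, Fgf17 and Fgfr1.

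Fgf17, a close relative of Fgf8 that is also made in the ridge, measured 1.75 and 1.47 CPM in controls 1 and 2, and 0.316 and 0.324 CPM with cyclopamine. These are 17 and 20 reads against 4 and 4, and all 4 libraries were above the 3-read floor. Over each group the controls held 4.97-fold more (95% exact interval 2.28 to 12.3, for counting error only). The groups did not overlap, but with a mean of 0.966 CPM the gene lay just under the expression filter. With the filter at 0.5 CPM its log2 difference of -1.36 had a limma adjusted p = 0.459, and the authors' deposited table gives a log2 fold change of -2.29 with a false discovery rate of 0.177.

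Fgf9, a ligand of the distal ridge and also of other tissues, measured 5.78 and 9.04 CPM in controls 1 and 2, and 3.71 and 6.81 CPM with cyclopamine. The groups overlapped, and replicate 2 was the higher library in both. The log2 fold change was -0.48 (95% interval -1.17 to 0.21, limma adjusted p = 0.983), with values from -0.88 without cyclopamine 2 up to -0.08 when cyclopamine 1 was removed, never called.

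**Figure D2:**
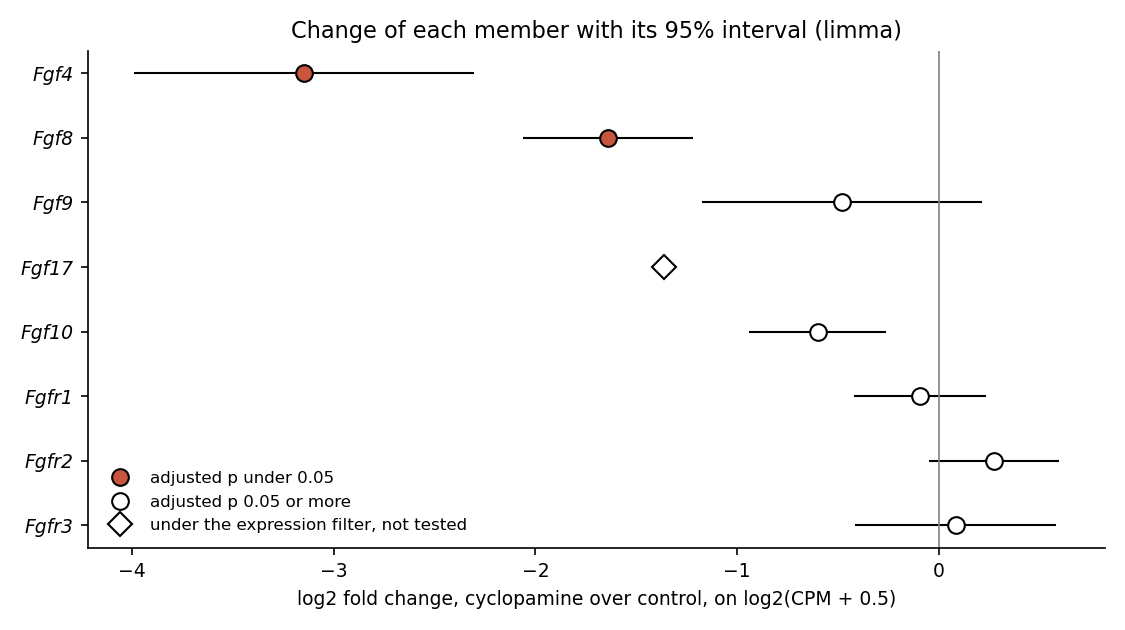
Log2 fold change of cyclopamine over control on log2(CPM + 0.5) for the 8 genes (horizontal axis), with limma's 95% interval; filled circles have an adjusted p under 0.05 and the diamond was not tested. The intervals of Fgf4 (-3.99 to -2.30) and Fgf8 (-2.06 to -1.22) do not overlap, and those of the 3 receptors include 0.

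The fall of Fgf4 was larger than that of Fgf8 in these libraries, a difference that permuting 2 libraries a group cannot bring under 0.05. Fgf4 made up 15.5% of the reads of Fgf4 and Fgf8 together in control 1 (95% exact binomial interval 11.9 to 19.7) and 23.1% in control 2 (19.7 to 26.8), against 3.01% (0.825 to 7.52) in cyclopamine 1 and 4.92% (1.83 to 10.4) in cyclopamine 2. Each cyclopamine share was below each control share, with counting intervals that do not overlap. The log2 ratio of Fgf4 to Fgf8 differed by -1.50 between cyclopamine and control, and by -1.83 to -1.17 when single libraries were left out. These values understate the difference, because both cyclopamine values of Fgf4 lie below the added 0.5 CPM. Taking reads over each group, the controls held 20.1-fold more Fgf4 and 3.24-fold more Fgf8. The log2 fold changes from edgeR's quasi-likelihood fit were -4.24 for Fgf4 and -1.69 for Fgf8. By an exact permutation test the difference of -1.50 has p = 0.333 (two-sided), the smallest that 2 libraries against 2 allow. The log2 ratio of Fgf9 to Fgf8 went the other way, from -2.32 and -1.78 in the controls to -1.34 and -0.44 in cyclopamine (exact permutation p = 0.333).

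Per kilobase of annotated exon, the 4 ridge ligands together measured 26.9 and 29.8 CPM in controls 1 and 2, and 8.62 and 8.77 CPM with cyclopamine. Fgf8 supplied most of this sum in every library, between 79.4% and 87.4%. The share of Fgf4 was 6.60% and 10.19% in the controls and 1.15% and 1.73% in cyclopamine, while that of Fgf9 was 4.62% and 6.52% against 9.25% and 16.7%. Fgf9 therefore stood second among the ridge ligands in cyclopamine and Fgf4 second in both controls.

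**Figure D3:**
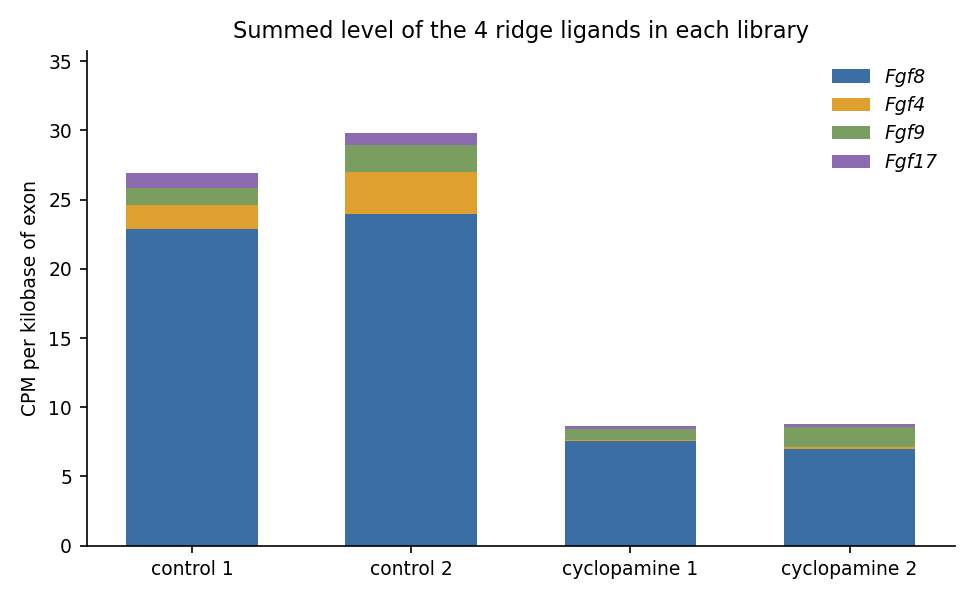
Summed level of the 4 ridge ligands in each library in CPM per kilobase of exon (vertical axis from 0), stacked by gene. The control bars reach 26.9 and 29.8 and the cyclopamine bars 8.62 and 8.77, with Fgf8 the largest part of each.

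Fgf10, the mesenchymal ligand that starts and sustains limb budding, measured 68.0 and 62.2 CPM in controls 1 and 2, and 46.0 and 39.7 CPM with cyclopamine. Its groups did not overlap and the replicates were close, with 490 to 847 reads per library. The log2 fold change of -0.60 (95% interval -0.94 to -0.26) had an unadjusted p = 0.00178 and did not pass over all genes (limma adjusted p = 0.255). It was not called without any 1 library either (adjusted p from 0.104 to 0.706). Fgf10 lies on chromosome 13 at 118669791 to 118792115, where an exon of the annotated gene Gm16263 overlaps it on the opposite strand; the sources used here do not say whether counting used the strand.

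None of the 3 receptors was called in either direction, and each of their 95% intervals includes 0. Fgfr1, the main receptor of limb mesenchyme, measured 254 and 217 CPM in controls 1 and 2, and 227 and 213 CPM with cyclopamine, overlapping groups (log2 fold change -0.09, 95% interval -0.42 to 0.23). Fgfr3, best known for restraining growth of cartilage, measured 11.9 and 9.40 CPM against 11.7 and 10.8 CPM, also overlapping (0.08, 95% interval -0.42 to 0.58). Fgfr2, the receptor of Fgf10 in the ectoderm, measured 98.9 and 84.8 CPM against 115 and 106 CPM. Both cyclopamine libraries were above both controls, and the log2 fold change of 0.27 (95% interval -0.05 to 0.59) was not called (limma adjusted p = 0.946). The table gives 1 value per gene, so the epithelial and mesenchymal splice forms of the receptors were not separated. Of factors known to act in the splicing of Fgfr2, Esrp1 measured 39.6 and 31.2 CPM against 39.1 and 27.3 CPM, and 0 of 6 on that list were called.

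In the annotation, Fgfr1 is on chromosome 8 (25513654 to 25575718), Fgfr2 on chromosome 7 (130162451 to 133123350) and Fgfr3 on chromosome 5 (33721674 to 33737068). Exons of Fgfr1 and Fgfr3 each overlap those of an annotated gene on the opposite strand, and the Fgfr2 model runs into Ctbp2 on the same strand, so reads could be shared there. Fgf9 and Fgf17 are both on chromosome 14, at 58070547 to 58112720 and 70636203 to 70642268, with no exon overlap.

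Compared per kilobase of exon, the controls had Fgfr1 (23.8 ± 2.61 CPM per kilobase, SD, n = 2) and Fgf8 (23.4 ± 0.773) highest, which did not differ beyond their spread. Fgf10 (14.2 ± 0.886) and Fgfr2 (8.89 ± 0.97) followed, each clear of its neighbours. Fgf4 (2.41 ± 0.89), Fgf9 (1.59 ± 0.496), Fgfr3 (1.49 ± 0.243) and Fgf17 (0.954 ± 0.119) were lowest in that order, and the libraries of Fgf9 overlapped those of Fgf4 above it and of Fgfr3 below it. In cyclopamine Fgf8 stood at 7.25 ± 0.407, below Fgfr1, Fgfr2 and Fgf10, and Fgf4 last at 0.125 ± 0.0378. This order depends on the length used. With the longest transcript in place of all exons the receptors gain most, Fgfr1 at 46.7 and Fgfr2 at 20.7 in the controls. Fgfr1 then stands above Fgf8 (27.0), and Fgfr2 above Fgf10 (15.8).

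Genes other than FGFs that are made in the ridge or the ectoderm were also read, and in whole limb buds fewer ridge cells and less RNA per ridge cell cannot be told apart. Of 17 such ridge genes 0 were called by limma, edgeR's quasi-likelihood test or DESeq2 (2 had an unadjusted limma p under 0.05), with a median log2 fold change of -0.10 against 0.00 over all genes tested. Their summed level was 593 and 596 CPM in controls 1 and 2, and 534 and 560 CPM with cyclopamine. Sp8, a zinc finger factor needed for ridge Fgf8, measured 20.4 and 28.9 CPM against 20.7 and 17.7 CPM. Msx2, a BMP-responsive homeobox gene, had a log2 fold change of 0.52 (limma adjusted p = 0.683) and, of the fits with a library removed, was called in that without control 1 (adjusted p = 0.0321). Wnt5a, a signal also made by mesenchyme, was at -0.48 (adjusted p = 0.793) and was called lower without cyclopamine 2 (adjusted p = 0.0204). Bmp7 (-0.33) was not called in any fit with a library removed.

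Set against the sum of these ridge genes, Fgf4 was lower in cyclopamine by a log2 difference of -3.02, Fgf8 by -1.52 and Fgf17 by -1.24, each with both cyclopamine libraries below both controls (exact permutation p = 0.333, the smallest possible here). For Fgf9 the difference was -0.36, with overlapping groups (exact permutation p = 0.667). The member values here carry the added 0.5 CPM, which understates the falls of Fgf4 and Fgf17, whose cyclopamine values lie below it. Whether Fgf8 or Fgf17 fell more cannot be read from these differences. Taking reads over each group, the controls held 4.97-fold more Fgf17 (exact interval 2.28 to 12.3) and 3.24-fold more Fgf8 (2.80 to 3.76). The largest terms of the sum in both controls were Wnt5a (154 and 223 CPM) and Bmp4 (114 and 107 CPM), which mesenchyme also makes, so the sum is no measure of ridge cells alone.

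Of 17 limb ectoderm genes 0 were called by these 3 tools (4 at an unadjusted p under 0.05), with a median log2 fold change of 0.10 and summed levels of 609 and 471 CPM in controls 1 and 2, and 641 and 485 CPM with cyclopamine. Replicate 1 had more ectoderm transcripts in both groups, with 14 of the 17 genes higher in control 1 than in control 2 and 14 higher in cyclopamine 1 than in cyclopamine 2. The median went from 0.45 without control 1 to -0.19 without control 2. Relative to the ectoderm sum the log2 differences were -3.20 for Fgf4 and -1.70 for Fgf8. Wnt7a, the dorsal ectoderm signal that helps to keep Shh on, had the smallest p of the list, at 9.18 and 13.96 CPM against 5.05 and 5.27 CPM (log2 fold change -1.06, limma adjusted p = 0.227). Krt14, a keratin of basal epidermis, had the opposite sign at 0.82 (adjusted p = 0.711).

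A different set of transcripts moved with the groups and with Fgf4. Of 14 neural markers 13 were in the table and 9 were tested. All 9 had a negative log2 fold change, and limma called 7 of them lower. Their summed level was 47.3 and 83.6 CPM in controls 1 and 2, and 9.31 and 10.9 CPM with cyclopamine, with Ina, Neurog2 and Neurod4 at 0 reads in both cyclopamine libraries. Control 2 was above control 1 for 12 of the 13, as it was for Fgf4, while Fgf8 was nearly equal in both controls. That order of the controls is not particular to neural markers. It was also seen in Shh (7.84 and 14.5 CPM in controls 1 and 2), Fgf9 (5.78 and 9.04 CPM) and Wnt7a (9.18 and 13.96 CPM). The opposite order was seen in 14 of the 17 limb ectoderm genes. The part of neural tissue in the Fgf4 result was not tested. Erythroid markers differed between replicates too, summing to 796 and 353 CPM in controls 1 and 2, and 1258 and 743 CPM with cyclopamine, with 0 of 4 called (3 at an unadjusted p under 0.05). Of the tested Schwann cell, endothelial, macrophage and myoblast markers limma called 0, and 0 had an unadjusted p under 0.05.

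**Figure D4:**
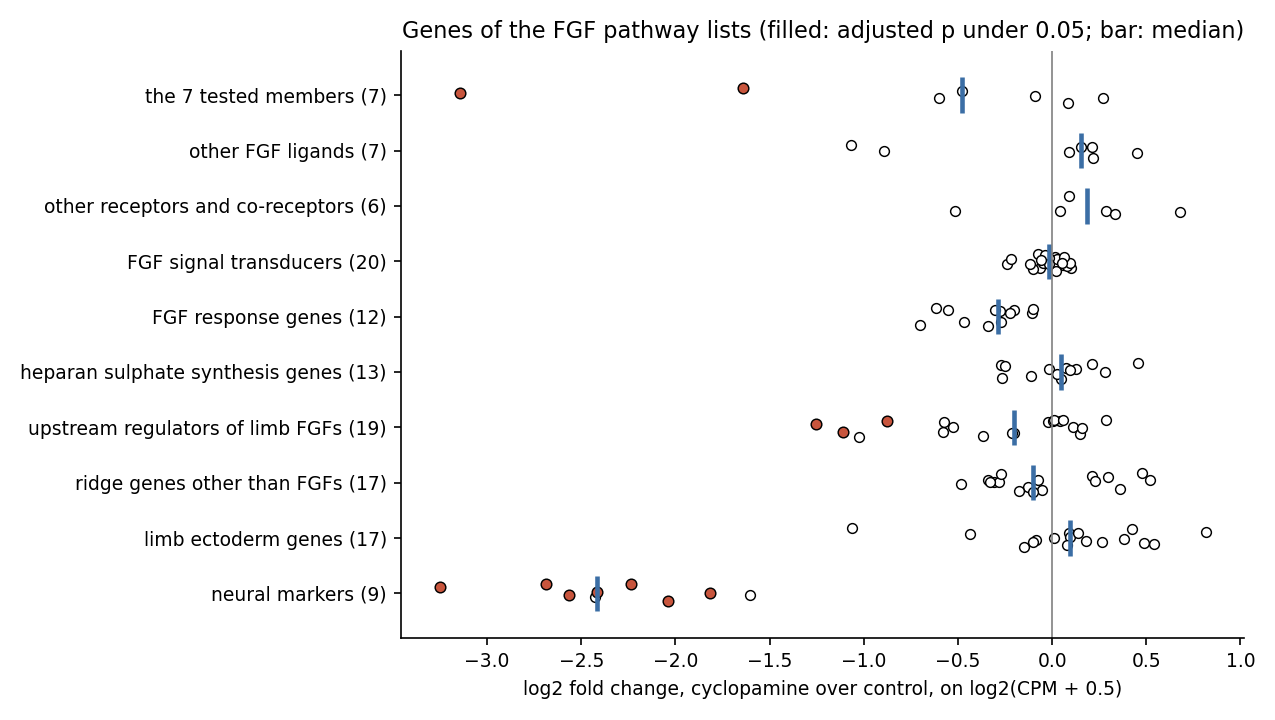
Log2 fold change of cyclopamine over control on log2(CPM + 0.5) for each tested gene (points) of the FGF-related lists, with the list median. All 12 FGF response genes lie below 0 with a median of -0.29, and the medians of the transducers and heparan sulphate genes lie at -0.02 and 0.05.

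Genes that FGF signalling is known to raise in limb mesenchyme all had negative values. However, none was called by limma or edgeR's quasi-likelihood test (4 had an unadjusted limma p under 0.05). DESeq2 called Ccnd1 alone (adjusted p = 0.0127). The authors' deposited table also marks only Ccnd1 among them (false discovery rate 0.0160). All 12 such response genes had a negative log2 fold change, with a median of -0.29 and a range from -0.70 to -0.10, where 6647 of the 13568 genes tested were negative. In 10 of the 12 both cyclopamine libraries lay below both controls, a share to be read beside the 15.8% over all genes. Ccnd1, the cyclin that drives entry into S phase, measured 175 and 217 CPM against 116 and 124 CPM (log2 fold change -0.70, limma adjusted p = 0.0963). It was called without control 1 (adjusted p = 0.0363) and without cyclopamine 2 (0.0433), and not in the other fits that left out a library. Spry4, a feedback inhibitor of receptor tyrosine kinases, measured 128 and 143 CPM against 93.7 and 82.9 CPM (log2 fold change -0.62, adjusted p = 0.178). The proto-oncogene Mycn was at -0.55 (adjusted p = 0.287) and the ETS factor Etv1 at -0.47 (adjusted p = 0.616). Some of these genes also answer to Hedgehog signal directly, and the part of either signal was not tested.

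Of 20 transducers 0 were called by limma, the quasi-likelihood test or DESeq2, and 0 had an unadjusted p under 0.05, with 11 lower and 9 higher, a median of -0.02 and a range of only -0.24 to 0.10. The smallest p belonged to the kinases Mapk3 (-0.22) and Braf (-0.12), the docking protein Frs3 (-0.24) and the exchange factor Sos1 (0.10). Of 13 heparan sulphate synthesis genes 0 were called by the same tools (1 at an unadjusted p under 0.05), with a median of 0.05. Hs6st1, a 6-O-sulphotransferase, measured 45.9 and 39.2 CPM against 59.6 and 57.4 CPM (log2 fold change 0.46, limma adjusted p = 0.585), with both cyclopamine libraries higher.

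Other receptors and co-receptors gave 0 calls among 6 tested (1 at an unadjusted p under 0.05), 5 of them with positive values. Flrt3, a membrane protein that binds FGF receptors, measured 126 and 141 CPM against 163 and 174 CPM (log2 fold change 0.34, limma adjusted p = 0.813). Its relative Flrt2 was at 0.29, Flrt1 at -0.52, and the remaining receptor Fgfr4 at 1.24 and 1.40 CPM against 1.81 and 3.16 CPM (log2 fold change 0.68, adjusted p = 0.968).

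Of the other FGF ligands 15 of 17 were matched in the table, 9 had at least 3 reads in every library, and 0 of the 7 tested were called (1 at an unadjusted p under 0.05). Fgf13, an intracellular family member, was the most abundant, between 7.27 and 9.64 CPM in all 4 libraries. Fgf1 measured 2.68 and 1.98 CPM against 0.552 and 1.22 CPM (log2 fold change -1.07, limma adjusted p = 0.764). Fgf15 measured 1.55 and 3.89 CPM against 1.18 and 1.05 CPM (log2 fold change -0.89, adjusted p = 0.875). Fgf11 measured 1.55 and 0.882 CPM against 1.81 and 1.78 CPM, with both cyclopamine libraries above both controls (log2 fold change 0.45, 95% interval -0.46 to 1.36). Fgf5, Fgf7, Fgf12, Fgf18 and Fgf23 had overlapping groups. Fgf3 had 2 and 8 reads in the controls and 0 in both cyclopamine libraries.

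Regulators known to act upstream of limb FGFs were followed as 19 genes, with a median of -0.20. Limma called 3 lower and 0 higher, and 7 had an unadjusted p under 0.05. Negative log2 fold changes were seen in 11 and positive ones in 8. Both cyclopamine libraries lay below both controls in 9 and above them in 2, where the shares over all genes tested were 15.8% and 16.8%. Sall1, a zinc finger factor, measured 116 and 125 CPM against 51.2 and 49.0 CPM (log2 fold change -1.25, limma adjusted p = 0.000921). Hoxd13, a distal and posterior homeobox gene, measured 117 and 105 CPM against 63.7 and 40.9 CPM (log2 fold change -1.11, adjusted p = 0.0189). Both calls were kept without each library in turn. Grem1, the BMP antagonist that links the Shh domain to the ridge, measured 42.8 and 45.3 CPM against 22.7 and 24.8 CPM (log2 fold change -0.88, adjusted p = 0.0434). Its groups were clearly apart, but the call was lost without control 1 (0.0582), control 2 (0.144) or cyclopamine 1 (0.0594). Hoxd11, a homeobox gene listed with the limb mesenchyme markers, fell as well (-0.92, adjusted p = 0.0454), a call lost without control 1 (0.124) or cyclopamine 2 (0.148) and in edgeR's quasi-likelihood test (0.0728). Shh itself measured 7.84 and 14.5 CPM against 6.07 and 8.02 CPM, overlapping groups (-0.58, adjusted p = 0.885).

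Fgf4 lies in a cluster with Fgf3 and Fgf15, and genes with a start within 500 kb of it were compared, a window chosen with values known. Of its 8 listed neighbours, 7 were tested and 1 was called lower, Ano1. This gene of a calcium-activated chloride channel has its start at -95.4 kb from the first annotated start of Fgf4. Ano1 measured 25.0 and 27.7 CPM against 8.68 and 11.5 CPM (log2 fold change -1.35, SE 0.21, limma adjusted p = 0.0126), and the call was kept without each library in turn. With Ccnd1, at 92.6 kb, and Fgf15, at 49.2 kb, it made 3 of 7 tested neighbours whose cyclopamine libraries both lay below both controls, where 4 of 10 did so around Fgf8 and 15.8% over all genes tested. The other tested neighbours of Fgf4 were Cttn (0.08), Ppfia1 (-0.0049), Fadd (-0.10) and Tpcn2 (-0.19), and the median of the 7 was -0.19. Around Fgf8 limma called 0 of the 10, with a median of -0.0013, and the nearest, Npm3, was at -0.19.

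**Figure D5:**
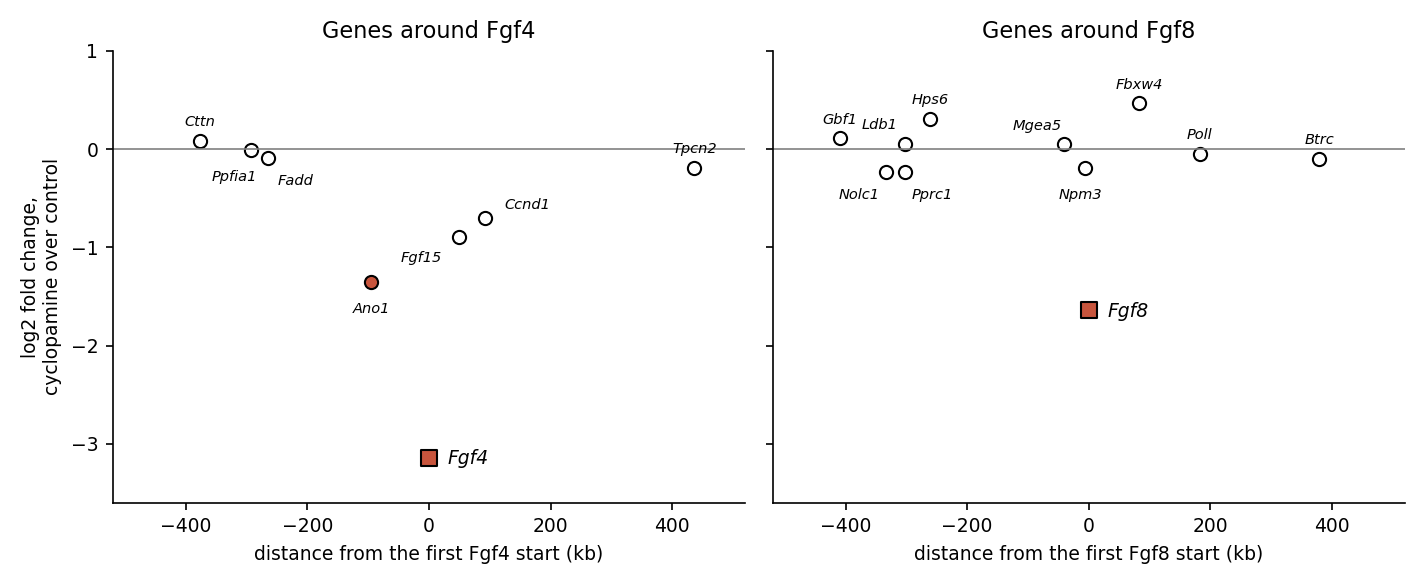
Log2 fold change of cyclopamine over control (vertical axis) of tested genes within 500 kb of the first annotated start of Fgf4 and of Fgf8, by distance in kb (horizontal axis). Beside Fgf4 the called neighbour is Ano1 at -95.4 kb, and beside Fgf8 none is called.

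Likeness of pattern was taken as the distance between centred log2(CPM + 0.5) values over the 4 libraries, which share the same 2 groups, and is a description only. Near to Fgf4 were Ina, Myt1, Gli1, Elavl3 and Rfx4, at distances from 0.587 to 0.975. They hold the Hedgehog target Gli1 and genes of neurons (Ina, Myt1, Elavl3). Nearest to Fgf8 were Sost, Slc1a2, Chl1, Sall1, Ppp2r2c and Aox3, from 0.31 to 0.431. Nearest to Fgf10 were Wnt9b, Acad12, Soga2, Slc29a4, Aurkb and Notum, from 0.0466 to 0.13. The receptors had very near neighbours, led by Golm1 for Fgfr1, Dcaf5 for Fgfr2 and B3galt2 for Fgfr3. Values were centred but not scaled, so genes that vary little over the libraries lie near to many others whatever their pattern.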

How the data were processed

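Libraries were made from TRIzol-extracted RNA with standard SOLiD protocols, per the labels' protocols. Per the submitters' processing notes, mm10, HTSeq 0.5.4p5, edgeR 3.4.2, TopHat2 2.0.9, SAMtools and Bowtie were used. The sources used here do not give the annotation or the strand setting. The deposited table holds a normalized signal per gene, which the authors scaled to CPM of an effective library size. All values (100%) were whole reads within 0.01 of a read, so reads were recovered. The authors' deposited comparison lists for each gene its p-value, false discovery rate, log2 fold change and average log2 CPM.

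Groups follow the sample titles. limma 3.58.1 in R 4.3.3, with an intensity trend and no covariate, was fitted to log2(CPM + 0.5) of the 13568 genes whose mean reached 1 CPM, two-sided, with Benjamini-Hochberg adjustment over all of them. Fold changes on this scale understate those of low genes. A floor of 3 reads was used, and floors and counting intervals (95%, exact Clopper-Pearson) cover counting error only. Alternatives were edgeR 4.0.16 (quasi-likelihood) and DESeq2 1.42.0 on recovered reads, other scalings, filters, pseudocounts and variance models, a replicate block, leaving out each library, and, chosen after seeing the data, edgeR's exact test. Scripts were tested on simulated data. Genes were placed by the GENCODE vM21 annotation of mm10.

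The members and lists were chosen with earlier results of these data known. Named are the 8 members, Gli1, all called genes of the FGF-related and regulator lists with up to 4 of smallest p each, the other FGF ligands with 3 reads in every library, and, from the 6 genes nearest in pattern to a member, those given in the text (some genes that the rule covers are not reported here); Bmp4, Shh and the neighbours of Fgf4 and Fgf8 were added after their values were seen.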

Additional observations from a re-analysis of the deposited data

How the results depend on the processing

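The calls of Fgf4 and Fgf8 depended on the variance model and on the filter. Of the members 2 were called lower in most fits, 1 with a filter at 5 CPM (which leaves out Fgf4), and 0 without a filter or without an intensity trend. The adjusted p of Fgf4 (-3.15) was 0.0840 without a filter and 0.0732 without the trend, and that of Fgf8 (-1.64) was 0.0684 and 0.114. Both were called by edgeR's quasi-likelihood test (adjusted p = 0.00134 each) and by DESeq2 (1.69e-07 and 3.02e-08). Fgf4 kept its call in 15 of 17 alternatives, with log2 fold changes from -4.27 to -2.60, and Fgf8 in 16 of 18. Fgf9 and the 3 receptors were uncalled in all 18. Fgf17 with edgeR's exact test, added after seeing the data, was at -2.29 (adjusted p = 0.178).

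Over all genes, limma called 38 (32 lower, 6 higher). The count was 20 (17 lower, 3 higher) when scaled by the plain library total, 2 (1 lower, 1 higher) without a filter, 0 (0 lower, 0 higher) without the trend, where 837 had an unadjusted p under 0.05, and 80 (61 lower, 19 higher) with the exact test. DESeq2 called 52, of which 10 higher. Leaving out a library gave 43 to 122 calls, 19 to 56 lower and 24 to 68 higher; the counts were 79 without control 1, 43 without control 2, 122 without cyclopamine 1 and 84 without cyclopamine 2. The cause was not tested.

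With the replicate number as a block limma called 351 of 13568 genes (165 lower, 186 higher). Fgf10 (-0.60) was among them (limma adjusted p = 0.0016), as were 3 of the 12 FGF response genes (Ccnd1, Mycn and Spry4). The block also called genes of other lists, in either direction. These were 6 of 19 regulators, 2 of 17 ridge genes (Msx2 and Wnt5a), 1 of 17 ectoderm genes (Wnt7a) and 1 of 13 heparan sulphate genes (Hs6st1). Among cell type markers it called 2 of 4 erythroid and 9 of 9 neural genes tested. The labels tie the numbers to no shared litter or day, and the deviations of same-numbered libraries correlated at 0.274 across 13568 genes, which are not independent, so the block is no established pairing.

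With the longest transcript as length, control levels were 27.0 CPM per kilobase for Fgf8, 15.8 for Fgf10, 46.7 for Fgfr1, 20.7 for Fgfr2 and 2.51 for Fgfr3. Depth limits the cyclopamine values of Fgf4 and Fgf17, which rest on 4 to 6 reads a library. The control values of Fgf17 rest on 17 and 20 reads.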
